A study of Mus musculus with 18 samples.

Results

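The mitochondrial ribosomal protein genes were followed through polysome gradients of mouse embryonic stem cells (ESCs). They were taken by name, as every gene of the deposited count table whose symbol starts with Mrpl or Mrps followed by a digit, without the pseudogenes marked -ps. This gave 78 of 51467 genes, 49 named for the large subunit (Mrpl) and 29 for the small subunit (Mrps), and all were annotated as protein-coding. The study set wild-type (WT) V6.5 ESCs beside Dgcr8 knockout (KO) ESCs, an earlier-made KO line, and both were kept in medium with serum, LIF and 2i. DGCR8 is needed to cut primary microRNA transcripts, so that cells without it lack canonical microRNAs. Cells were held for 2 minutes in 100 ug/ml cycloheximide, and lysates were run on gradients of 10 to 50% sucrose. The material of each gradient was pooled by ribosome load, as monosomes, as low polysomes with 2 to 4 ribosomes per message and as high polysomes with 4 or more. With 3 gradients for each genotype this gave 18 libraries of 3′ end reads, in 6 groups of 3. Because 1 KO line was compared with WT cells, the loss of Dgcr8 and other differences between the lines cannot be told apart.

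Mitochondria have a ribosome of their own, which makes the respiratory chain proteins that mitochondrial DNA encodes. Its RNAs come from mitochondrial DNA, but its proteins are encoded in the nucleus, made on cytosolic ribosomes and imported, so that the gradients here report on the making of the parts of one ribosome by another. Many of these proteins descend from bacterial ribosomal proteins, and others are particular to mitochondria. Most are small, and a short coding sequence (CDS) has room for fewer ribosomes at a time than a long one.

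Of the 78 genes, 77 passed the filter of 3 CPM (counts scaled to library size) in at least 3 libraries, among 12851 genes tested. The exception was Mrpl53, which had 0 reads in all 18 libraries; 100.0% of its 695 exonic bases in the deposited annotation also belong to Gm42688 on the same strand, and the part of this overlap in the count of 0 was not tested. Library totals ran from 1151649 to 4984833 counts, of which the members took 8261 to 33481 reads. At a mean of 4.44 and 5.06 reads per library, Mrps36 and Mrps18b were close to the limit of detection, which is set here at 3 reads (0.689 to 2.65 CPM).

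Some facts of the whole series bear on these values. Reads of Dgcr8 were present in KO cells, with 38 to 183 per library against 67 to 251 in WT cells, and 3′ reads test a knockout only where the deletion reaches the 3′ end. By limma-voom, Dgcr8 was lower in KO monosomes, low and high polysomes, at log2 -0.562, -0.455 and -1.011. The adjusted p were 0.0185, 0.0223 and 0.000276. All 7 pluripotency markers passed the filter, with summed levels of 2090 to 3690 CPM in WT and 2240 to 2660 CPM in KO libraries. The sums do not show single markers, which differed in both directions. In high polysomes Pou5f1 and Klf4 were lower in KO cells by log2 -1.42 and -0.93 (limma-voom adjusted p = 5.73e-09 and 2.6e-08). In low polysomes Sox2 was higher in KO cells by 0.71 (limma-voom adjusted p = 3.33e-07). The 6 fibroblast markers summed to 12.2 to 17.5 CPM in WT and 4.51 to 27.4 CPM in KO libraries, the highest in the low polysome library of KO gradient 1. Of trophectoderm and primitive endoderm markers, 1 of 3 and 0 of 4 passed the filter, and their sums stayed at or below 9.62 and 5.61 CPM. The part of these markers in the results was not tested. Ddx6, which codes for an RNA helicase of microRNA-mediated repression, differed little between genotypes, with a log2 change in translation level of -0.08 ± 0.16 (SE; adjusted p = 0.76).

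The sequences of the smallest members are shown because coding length ordered many of the results. The 2 shortest coding sequences among the members tested are given below (GENCODE M21 on GRCm38), with the start and stop codons in capitals. Mrpl33 (chr5:31614001-31622426, plus strand, CDS in several exons) has 198 nt, and Mrps21 (chr3:95862752-95870576, minus strand) has 264 nt.
Mrpl33: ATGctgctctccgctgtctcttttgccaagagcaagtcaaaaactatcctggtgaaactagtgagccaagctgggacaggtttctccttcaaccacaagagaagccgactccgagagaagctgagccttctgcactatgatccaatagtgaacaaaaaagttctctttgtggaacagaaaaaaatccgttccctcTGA
Mrps21: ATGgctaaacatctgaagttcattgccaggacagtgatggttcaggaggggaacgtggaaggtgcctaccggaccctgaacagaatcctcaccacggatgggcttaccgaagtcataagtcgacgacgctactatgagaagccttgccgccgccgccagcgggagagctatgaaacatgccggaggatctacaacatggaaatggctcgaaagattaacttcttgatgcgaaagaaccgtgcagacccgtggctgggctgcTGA
The longest CDS of a member, that of Mrps30, has 1329 nt. The median CDS of the 77 members was 591 nt, against 1365 nt for the 11763 protein-coding genes tested with a known CDS.

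In WT cells, members made up similar shares of the reads in monosomes and high polysomes. Their share of all reads was 0.733% ± 0.0146 in monosomes, rose to 0.946% ± 0.00643 in low polysomes and was 0.797% ± 0.0349 in high polysomes (mean ± SD, n = 3). In KO cells the share was 0.655% ± 0.0223 in monosomes and 0.629% ± 0.0333 in low polysomes, and it came down to 0.41% ± 0.0171 in high polysomes. The WT and KO libraries did not overlap in any of these fractions, and the gap was widest in high polysomes. In bulk material, less of a message per cell and fewer cells that carry it cannot be told apart.

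**Figure D1:**
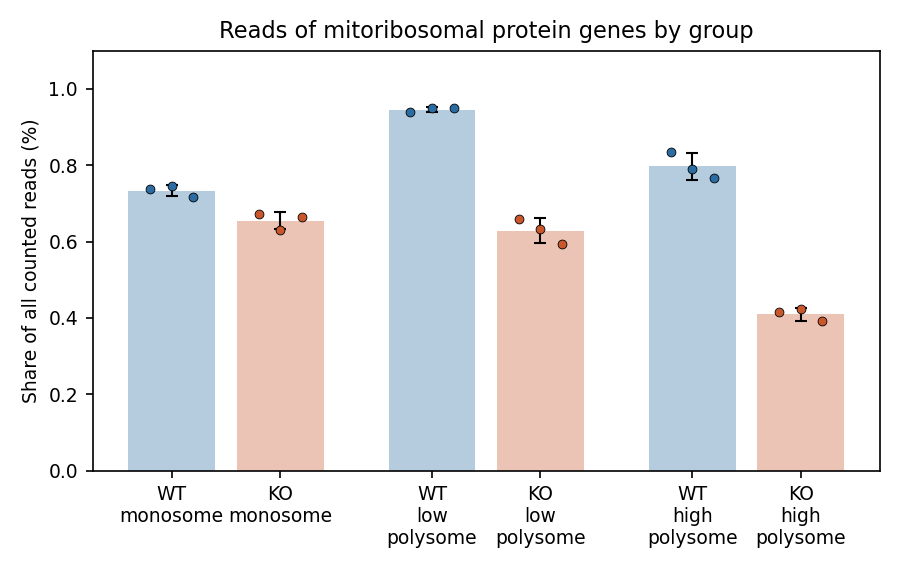
Share of all counted reads (%, y axis) that fell on the 78 mitoribosomal protein genes in the 6 groups. Points are libraries, bars are means and error bars are SD (n = 3). The 3 KO high polysome libraries lie at 0.391 to 0.424%, below every other library.

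To ask how these genes were distributed in unperturbed cells, high polysome levels were compared with monosome levels in WT gradients. This log2 ratio is called the translation level. The median over the 77 members was 0.24, against -0.01 over all genes tested, and members spread widely around it. Here and below, a gene is called at an adjusted p under 0.05 (limma-voom, Benjamini-Hochberg over all genes) with an absolute log2 change over 1. By this rule, 8 members were higher in high polysomes and 11 in monosomes, against 10.7% and 19.3% of all genes tested. By adjusted p alone, 32 were higher and 17 lower, against 26% and 28% of all genes. In KO cells the median translation level was -0.59, with 6 members called higher and 26 lower, the thinly covered Mrps36 among these, beside 17.5% and 25.5% of all genes, and 18 higher and 41 lower by adjusted p alone, beside 32.2% and 35.5%. With libraries scaled to total counts, the KO calls were 0 higher and 35 lower, beside 12.1% and 30.6% of all genes under that scaling.

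The large subunit proteins Mrpl3, Mrpl16 and Mrpl2 and the small subunit protein Mrps5, each with a bacterial homologue, stood at the polysomal end in WT cells. Mrpl3 had 45.5, 26.5 and 31.8 CPM in the WT monosome libraries and 94.4, 89.4 and 92.4 CPM in the high polysome libraries. Its log2 translation level was 1.43 ± 0.18 (SE; adjusted p = 6.09e-09). Values for Mrpl16, Mrps5 and Mrpl2 were 1.23, 1.17 and 1.08, and in each of the 4 genes every WT gradient gave a ratio above 0.5.

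At the other end, Mrpl33, Mrps24, Mrps21 and Mrpl52 had the lowest translation levels among members with 30 or more reads. CPM are relative within each library and the RNA in each fraction was not measured, so these values rank messages and do not say where most copies of a message lay. Mrpl33, the member with the shortest CDS, had 473, 485 and 394 CPM in WT monosomes, 451, 399 and 312 CPM in low polysomes, and 75.7, 68.8 and 65.6 CPM in high polysomes. Its translation level of -2.69 ± 0.14 (adjusted p = 1.8e-19) was that of the most abundant member in WT monosomes. Mrps24, whose bacterial homologue lines the path of the message into the ribosome, was at -2.11 ± 0.15, Mrps21 at -2.05 ± 0.29 and Mrpl52 at -2.05 ± 0.17. Mrpl23 was lower still at -3.33, but on 25.2 reads per library on average. These low genes did not overlap the high ones in any gradient.

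Across the 77 members, this order followed coding length. Spearman's rho between CDS length and translation level was 0.61 in WT cells, and 0.55, 0.58 and 0.60 in the separate gradients. Over the 11686 other protein-coding genes, of any length, it was 0.09. For CDS of 198 to 483, 501 to 756 and 759 to 1329 nt, their WT medians were -0.76, 0.12 and 0.21. Those of the members were -0.36, 0.17 and 0.72, so both rose with length over these ranges. In KO cells the rho over members was 0.81, with 0.84, 0.76 and 0.80 in the gradients. Members share libraries and reads of each gradient, so these correlations are descriptions across genes, not tests.

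The comparison of genotypes within each fraction showed the largest differences in high polysomes. In high polysomes, 74 of 77 members were lower in KO than in WT cells by their fitted value, the median log2 change was -1.03 against -0.08 over all genes, and 39 members were called lower and 0 higher. Among all genes tested, 17.9% were called lower and 15.1% higher there. By adjusted p alone, 65 members were lower and 1, Mrps22, was higher, against 31.6% and 29.1% of all genes. In 64 members, all 3 KO libraries lay below all 3 WT libraries, which held for 33.7% of all genes. In low polysomes this was so in 39 members (28.4% of all genes) and in monosomes in 32 (25.7%), and the reverse order was found in 1, 8 and 4 members (29.9, 28.6 and 23.5% of all genes) in high polysomes, low polysomes and monosomes.

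In low polysomes the median was -0.41 against 0.00 over all genes, with 18 members called lower and 0 higher, beside 13.6% and 11.4% of all genes. In monosomes it was -0.33 against -0.05, with 1 member called lower and 0 higher, beside 9.63% and 8.43% of all genes. At adjusted p alone, 22 members were lower and 3 higher in monosomes, where 19.9% and 17.5% of all genes passed. In low polysomes 38 were lower and 5 higher, and 26.2% and 26.1% of all genes passed. Thus, with the fold threshold, 1.3% of members were called lower in monosomes, 23.4% among low and 50.6% among high polysomes. These ran from below to well above the share of all genes. By adjusted p alone, members exceeded all genes in each fraction, with 28.6, 49.4 and 84.4% lower. Within the short, middle and long CDS ranges, 84.6, 56 and 11.5% of members were called lower in high polysomes. Other protein-coding genes of these lengths had 54.7, 34.6 and 18.3%, so by this rule the longest members were not in excess. The median of the longest members was still lower, at -0.56 against -0.24 for other genes of that length.

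**Figure D2:**
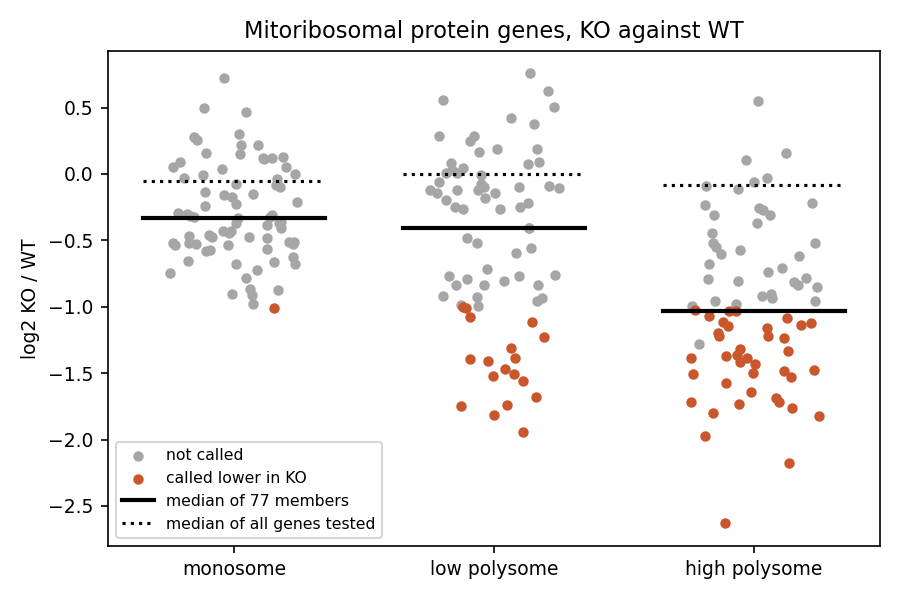
log2 KO/WT (y axis) of each of the 77 members tested in the 3 fractions. Points are genes, orange where called lower; solid lines are member medians (-0.33, -0.41 and -1.03) and dotted lines the medians of all genes tested, which stay near 0.

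Averaged over the 3 fractions, the members lowest in KO cells were Mrpl33, Mrpl42, Mrps21, Mrps24 and Mrps26. Mrpl33 fell from 75.7, 68.8 and 65.6 CPM in WT high polysomes to 26.5, 19.6 and 18.8 CPM in KO high polysomes, a ratio of 0.304 (log2 -1.72 ± 0.18, adjusted p = 6.37e-11). It also had less in KO monosomes, at 271, 233 and 220 CPM against 473, 485 and 394 CPM (log2 -0.91 ± 0.13, adjusted p = 4.54e-07). In low polysomes, where it had 103, 106 and 90.4 CPM in KO cells, the ratio was 0.26. WT and KO libraries did not overlap in any fraction.

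Mrps24 was likewise lower in each fraction, by log2 -0.98, -1.81 and -1.50 as ribosome load rose. The values were -0.87, -1.75 and -1.83 for Mrpl42 and -0.87, -1.52 and -1.68 for Mrps26, which are both particular to mitochondrial ribosomes. In these 3 genes, each value passed the adjusted p and those of both polysome fractions passed the fold as well. Mrps21 differed, with -0.43 ± 0.23 in monosomes (adjusted p = 0.149) and -1.74 and -2.18 in low and high polysomes, the last on 1.15 to 2.31 CPM in KO libraries.

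The members at the other end of this mean over fractions were Mrps22, Mrpl3, Mrpl37, Mrps15 and Mrpl38. Mrps22, a small subunit protein without a bacterial homologue, had 30.4, 40.4 and 39.2 CPM in WT high polysomes and 56.9, 54.4 and 50.1 CPM in KO high polysomes (log2 0.55 ± 0.15, adjusted p = 0.00222). It was the highest of the 77 in that fraction. Mrpl37 was at 259, 221 and 209 CPM in WT and 265, 261 and 242 CPM in KO high polysomes, which overlap (log2 0.16 ± 0.12). In low polysomes Mrps22, Mrpl3, Mrpl37 and Mrpl38 were higher in KO cells by log2 0.62, 0.56, 0.42 and 0.37 (adjusted p from 0.000494 to 0.0203), and in monosomes Mrpl3 was higher by 0.49 (adjusted p = 0.0347). None of these passed the fold threshold. Mrpl3, Mrps15 and Mrpl38 had log2 values of -0.11, -0.03 and 0.10 in high polysomes, each within about 1 SE of 0, and each 95% interval stayed within -0.37 and 0.37.

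Mrps31, also without a bacterial homologue, was the one member called lower in KO monosomes. It had 58.9, 44.5 and 63.7 CPM in WT and 29.5, 27.6 and 24.7 CPM in KO monosomes, so the libraries did not overlap (log2 -1.01 ± 0.19, adjusted p = 3.51e-05). The call stood close to the fold threshold and was lost without WT gradient 1, at -0.95, without WT gradient 3, at -0.92, and without KO gradient 3, at -0.94. In high polysomes Mrps31 was at -0.68 ± 0.14.

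The interaction of genotype and fraction then measured whether high polysomes and monosomes changed unequally. The change in translation level was negative in 67 of 77 members, with a median of -0.71 against 0.01 over all genes. It was called lower in 23 members and higher in 0, where 8.81% and 6.29% of all genes were called. By adjusted p alone, 43 members were lower and 2, Mrps22 and Mrps30, were higher, against 15.2% and 13% of all genes. The median translation level of the members was 0.338, 0.236 and 0.143 in the WT gradients and -0.554, -0.423 and -0.498 in the KO gradients. All KO gradients lay below all WT gradients in 54 members, among them each of the 23 called, and above them in 3; these patterns held for 21.4% and 20.3% of all genes.

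The 5 members with the most negative changes at 30 or more reads per library were Mrps21, Mrpl36, Mrpl54, Mrpl55 and Mrpl14. Mrps21 had log2 ratios of -1.89, -2.28 and -1.76 in WT gradients and -2.47, -3.35 and -4.17 in KO gradients. Its change of -1.75 ± 0.52 (adjusted p = 0.01) was no longer called without KO gradient 3, at -1.19 (adjusted p = 0.151). The 3 KO ratios were all below the WT ratios but lay far apart.

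Mrpl36, the homologue of a very small bacterial large subunit protein, had ratios of -0.49, -0.30 and -0.50 in WT and -2.04, -1.89 and -2.35 in KO gradients. Its monosome levels were alike, at 126, 114 and 115 CPM in WT and 137, 108 and 143 CPM in KO cells, while high polysome levels were 89.7, 93 and 81.2 CPM against 32.7, 28.6 and 27.3 CPM. The change was -1.69 ± 0.20 (adjusted p = 2.48e-08), which corresponds to a ratio of 0.31. Mrpl36 thus differed between genotypes in polysomes and not measurably in monosomes (log2 0.11 ± 0.13).

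Mrpl54, which bacteria lack, and Mrpl55, which was not sorted by descent here, were at -1.63 ± 0.25 and -1.60 ± 0.25. Mrpl54 was lower from the low polysomes on, with 179, 163 and 185 CPM in WT and 72.8, 71.1 and 49.9 CPM in KO low polysomes. For Mrpl55 the larger step lay between low and high polysomes, and its high to low polysome ratio changed by -1.14 ± 0.23. For Mrpl54 that ratio changed by -0.17 ± 0.24.

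Mrpl14, a large subunit protein at the interface of the subunits in bacteria, stood apart because its monosome level rose in KO cells. It had 58.3, 66.5 and 54.8 CPM in WT and 106, 95.9 and 97.1 CPM in KO monosomes (log2 0.72 ± 0.16, adjusted p = 0.000305). In high polysomes it went from 93.6, 81.1 and 81.8 CPM to 49.9, 45 and 48.5 CPM (log2 -0.83 ± 0.14). The genotypes did not overlap in either fraction, and the differences ran in opposite directions.

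**Figure D3:**
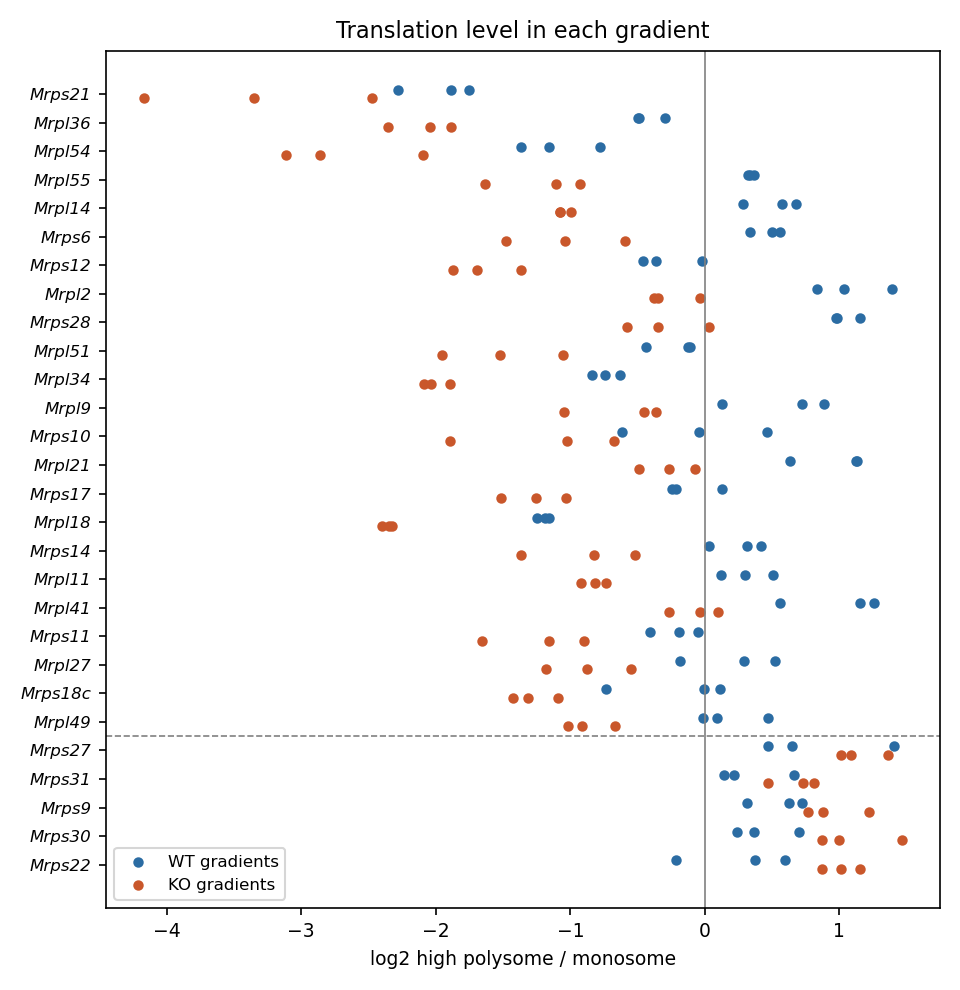
log2 high polysome/monosome ratio (x axis) of the 23 members called lower, in order of their change, and, under the dashed line, of the 5 members with the most positive changes. Each point is 1 of 3 gradients per genotype; in the 23 genes every KO gradient lies left of every WT gradient.

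The 5 most positive changes belonged to Mrps22, Mrps30, Mrps9, Mrps31 and Mrps27. Mrps22 had ratios of -0.22, 0.37 and 0.60 in WT and 1.01, 1.15 and 0.87 in KO gradients (change 0.79 ± 0.26, adjusted p = 0.0205). Mrps30, which carries a small subunit name but was later placed in the large subunit, had 0.70, 0.24 and 0.36 in WT and 0.99, 1.46 and 0.87 in KO gradients (0.69 ± 0.21, adjusted p = 0.00976). In both genes the genotypes did not overlap, but neither change reached the fold threshold.

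For Mrps30 the difference was in the monosomes, which held 139, 163 and 156 CPM in WT and 90.1, 64.8 and 92.8 CPM in KO cells (log2 -0.91 ± 0.16), while high polysomes differed by -0.22 ± 0.13. Mrps9, Mrps31 and Mrps27 had changes of 0.42, 0.33 and 0.31, none past the adjusted p. All 5 have a CDS of 1080 nt or more.

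Coding length ordered the change among members, as it did the translation level. Spearman's rho between CDS length and change in translation level was 0.70 over the 77 members and 0.55 over the 11686 other protein-coding genes. For KO against WT it was -0.03 in monosomes, against 0.65 in low polysomes and 0.71 among high polysomes. The 26 members with a CDS of 198 to 483 nt had a median change of -1.09 and 14 were called lower. The 25 members of 501 to 756 nt had a median of -0.70 with 7 called lower, and the 26 members of 759 to 1329 nt a median of -0.26 with 2 called lower.

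Other protein-coding genes of the same lengths changed in much the same way. Their medians were -0.97, -0.64 and -0.18 in these 3 ranges of CDS length, from 912, 1394 and 3211 genes. The shares called lower were 41, 23.3 and 7.04%, beside 53.8, 28 and 7.69% of the members. When a smooth trend of the change on CDS length over all protein-coding genes was subtracted, the member median was -0.06, with 34 members above and 43 below the trend. Farthest below it, apart from the thinly covered Mrps36, was Mrpl2 at -1.06, whose bacterial homologue helps to shape the catalytic centre, and next was Mrpl9 at -0.84. Mrps22 was farthest above, at 0.92.

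**Figure D4:**
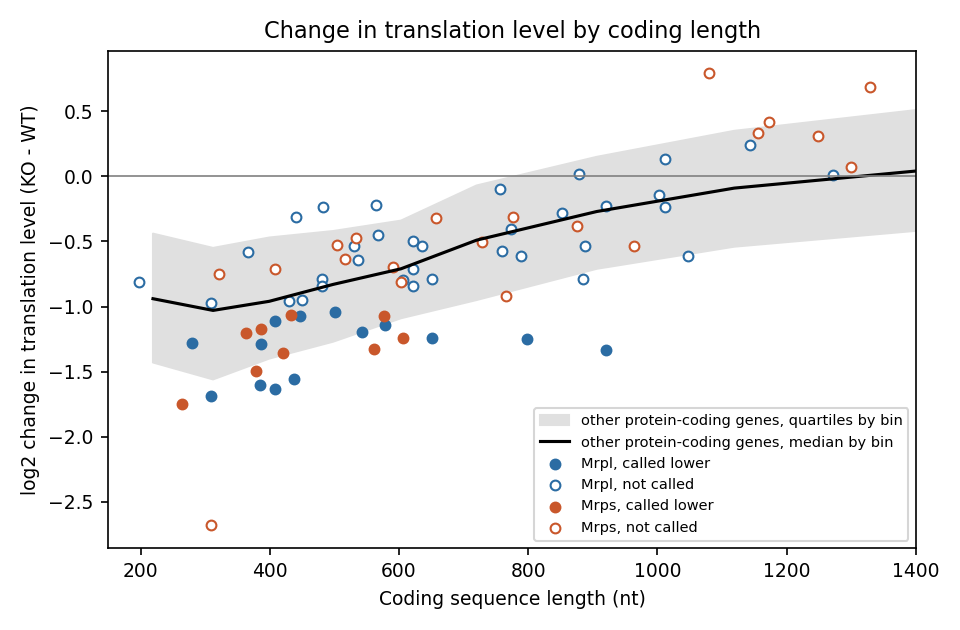
log2 change in translation level, KO minus WT (y axis), against CDS length in nt (x axis) for the 77 members, filled where called lower. The black line and grey band are the median and quartiles of other protein-coding genes in bins of CDS length; most members lie near the line, and Mrpl2 (921 nt, -1.33) lies far under it.

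Mrpl2 shows a large change in a longer message. It had 119, 126 and 97.3 CPM in WT and 149, 128 and 146 CPM in KO monosomes. In high polysomes it had 243, 225 and 256 CPM in WT and 115, 125 and 114 CPM in KO cells. The ratios were 1.03, 0.84 and 1.39 in WT and -0.38, -0.04 and -0.35 in KO gradients, and the change was -1.33 ± 0.17 (adjusted p = 1.91e-07). In low polysomes the genotypes were close, at 207, 215 and 199 CPM against 192, 201 and 179 CPM.

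Monosomes behaved otherwise. There the median KO to WT change of the members was -0.32, -0.45 and -0.35 in the short, middle and long ranges, whereas other genes of these lengths stood at -0.12, -0.03 and -0.04. In high polysomes the medians were -1.40, -1.08 and -0.56 for members and -1.15, -0.73 and -0.24 for other genes. The members lay below genes of similar length by about as much in monosomes as in high polysomes. These are descriptions of medians, with no test.

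**Figure D5:**
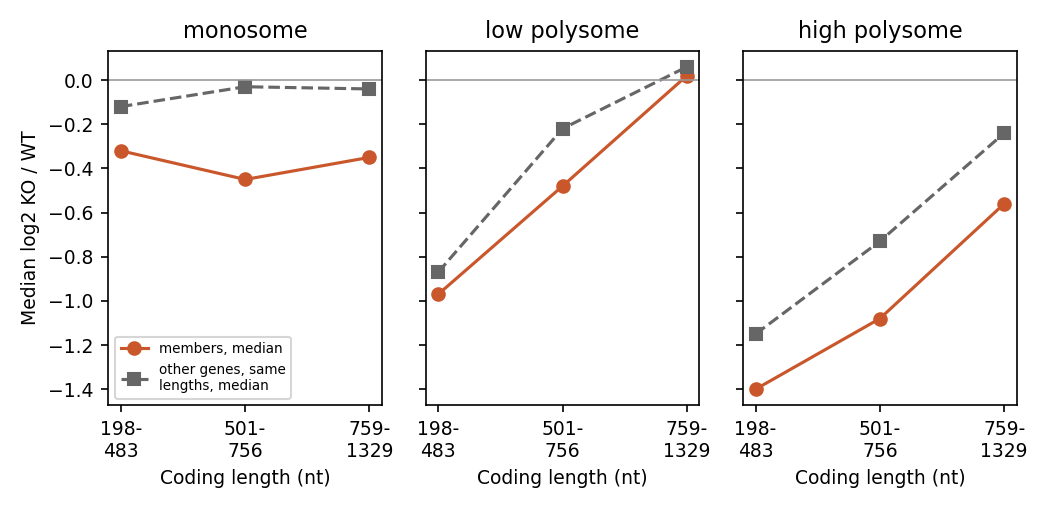
Median log2 KO/WT (y axis) of members (orange) and of other protein-coding genes (grey) in 3 ranges of CDS length (x axis, nt) for each fraction. In monosomes both lines are flat with the members lower, and in high polysomes both rise with length.

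The step between fractions at which members changed also depended on length. The change in the low polysome to monosome ratio was called lower in 9 members and higher in 0, beside 3.81% and 1.23% of all genes, and its median was -0.31 against 0.06. By adjusted p alone, 20 were lower and 4 higher, beside 7.49% and 3.9% of all genes. The 9 were Mrpl54, Mrpl57, Mrps21, Mrpl34, Mrpl18, Mrpl14, Mrps12, Mrpl36 and Mrpl33, from -1.46 to -1.03, and all but Mrpl18 belong to the 26 shortest members. Mrps21 was not called at this step without WT gradient 1 (-1.16), WT gradient 3 (-1.11) or KO gradient 3 (-1.16), with adjusted p from 0.0543 to 0.0623. Another 4 calls fell just short of the fold threshold when 1 gradient was left out. These were Mrpl33 (-0.96 without WT gradient 1, -0.98 without KO gradient 1), Mrps12 (-0.98 without WT gradient 1), Mrpl36 (-0.99 without WT gradient 3, -0.91 without KO gradient 3) and Mrpl14 (-0.99 without KO gradient 3). The number of members called was then between 6 and 12. For this step the rho with CDS length was 0.73 over members and 0.31 over other protein-coding genes of any length. The 26 shortest members had a median of -0.70 with 30.8% called lower, and the 26 longest 0.34 with 0 called. Other genes of the short and long ranges had medians of -0.77 and 0.09, with 27.3 and 1.56% called lower.

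The high to low polysome step was called lower in 5 members and higher in 0, beside 2.89% and 2.29% of all genes, with a median of -0.43 against -0.05. By adjusted p alone, 28 were lower and 0 higher, beside 10.3% and 7.52% of all genes. The 5 were Mrpl40, Mrpl55, Mrpl41, Mrpl21 and Mrpl9, from -1.14 to -1.01. All are of the large subunit, and none is among the 9 of the first step. Here the rho with CDS length was -0.04 over members and 0.43 over other protein-coding genes of any length. The members of each length range had medians between -0.45 and -0.40. Other genes of the short, middle and long ranges had -0.27, -0.44 and -0.25, also with no steady rise. Of these, 7.02, 9.4 and 3.58% were called lower, beside 7.69, 8 and 3.85% of the members. Leaving out 1 gradient gave 3 to 10 called members at this step, as set out by gradient in the closing section. Among the 5, Mrpl9, Mrpl21, Mrpl41 and Mrpl55 each lost the call in at least 1 of these fits, the lowest value of Mrpl9 being -0.82 without KO gradient 3, and Mrpl40 did not.

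Among the members of special role, Mrps12, part of the decoding centre, was called lower. Its ratios were -0.02, -0.46 and -0.37 in WT and -1.87, -1.69 and -1.37 in KO gradients (change -1.35 ± 0.19, adjusted p = 5.86e-07). Mrpl12, the stalk protein that contacts translation factors, had monosome levels of 205, 219 and 210 CPM in WT and 149, 143 and 148 CPM in KO cells. It was at 209, 165 and 189 CPM against 85, 68.7 and 71.9 CPM in high polysomes, and its change in translation level was -0.79 ± 0.18 (adjusted p = 0.000934), short of the fold threshold. WT and KO libraries of Mrpl12 did not overlap in either fraction.

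Mrpl58, a large subunit protein that can release stalled peptides, had ratios of 0.67, 0.67 and 0.46 in WT and -0.23, -0.23 and -0.23 in KO gradients (change -0.85 ± 0.20, adjusted p = 0.00101). Mrps18a, Mrps18b and Mrps18c are paralogs of 1 bacterial protein. Mrps18c changed by -1.07 ± 0.32 (adjusted p = 0.00993), a call lost without WT gradient 1 (-0.88, adjusted p = 0.0768), and, close to the fold threshold, without WT gradient 3 or KO gradient 2 (-0.98 in the last). Mrps18a changed by -0.69 ± 0.24 (adjusted p = 0.024), and Mrps18b, with 0 to 13 reads per library, gave -0.92 ± 0.91 (adjusted p = 0.495). The last interval, from -2.76 to 0.93, shows no more than that these reads are too few.

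The 4 most abundant members by mean CPM were Mrpl17, Mrpl15, Mrpl37 and Mrpl12. Mrpl17 had 332, 359 and 375 CPM in WT and 314, 291 and 258 CPM in KO high polysomes, and its change in translation level was -0.53 ± 0.17 (adjusted p = 0.016). That of Mrpl15 was -0.54 ± 0.16 (adjusted p = 0.0106), and that of Mrpl37 was 0.01 ± 0.18 (95% interval -0.35 to 0.37). None of the 4 reached the fold threshold. Counts here come from 3′ ends and do not grow with transcript length.

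Mrps36, which was later found to be part of a dehydrogenase complex and not of the ribosome, had 6, 5 and 1 reads in WT and 1, 0 and 0 in KO high polysomes. It was called lower in high polysomes, but since its KO libraries were at or under the floor the fitted value is no measured fold. With it set at the floor, the member medians in high polysomes and for the change in translation level stayed at -1.03 and -0.71, and 38 other members were called lower in high polysomes.

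Large and small subunit members had similar medians. The median change in translation level was -0.75 for the 48 Mrpl genes tested, 14 of them called lower, and -0.69 for the 29 Mrps genes, 9 of them called lower. By descent, the medians were -0.72 for 28 large subunit proteins with a bacterial homologue and -0.71 for 19 without one, Mrps30 among these. In the small subunit they were -0.99 for 16 with a homologue, 8 of them called lower, and -0.48 for 9 without one, 0 of them called and 2 lower and 1 higher by adjusted p alone. Another 5 members were not sorted by descent, Mrpl55 and Mrps36 among them, with a median of -1.33 and 2 called lower. The difference between these groups was not tested.

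Of the 5 mitoribosomal proteins that carry other symbols, Aurkaip1 (-1.49) and Chchd1 (-1.12) were called lower, and Dap3, Ptcd3 and Gadd45gip1 were not. The CDS of the first 2 have 603 and 357 nt, and those of the others 1191, 2058 and 669 nt. The rest of the mitochondrial expression machinery was spread to both sides. Neither these 5 genes nor the lists below were matched to the members for CDS length, and the part of length was not tested. Of 15 genes listed under mitochondrial translation factors, 1 was called lower and 1 higher. The lower was Slirp, which binds mitochondrial messages (-1.19 ± 0.21, adjusted p = 3.33e-05). The higher was Oxa1l, the insertase that receives new proteins at the inner membrane (1.21 ± 0.21, adjusted p = 2.02e-05). The largest value of that list, -1.60 for Mtrf1, did not pass (adjusted p = 0.0606), but passed with edgeR (-1.72, adjusted p = 0.0301), DESeq2 (-1.74, 0.0449), limma-trend (-1.44, 0.0233), total counts (-1.94, 0.0188), the replicate block (-1.62, 0.0479) and without WT gradient 2 (-1.96, 0.0339). With total counts, Oxa1l was at 0.88 and not called. The list's median was -0.24.

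Of 23 genes for ribosome assembly and rRNA modification, 2 were called lower, Mterf3 (-1.71) and Trub2 (-1.49), and 1 was called higher, Mrm3 (1.21), with a median of -0.30. Of 12 genes for mitochondrial transcription and RNA processing, 2 were called lower and 0 higher, with a median of 0.00. The 2 were Tefm (-1.37), an elongation factor, and Tfam (-1.36), which packages mitochondrial DNA, while Tfb2m (-1.46, adjusted p = 0.08) did not pass, except with total counts (-1.79, adjusted p = 0.0268). The shares called in these lists stand beside the 8.81% lower and 6.29% higher of all genes, with no test of the difference.

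Because Dgcr8 KO ESCs lack microRNAs, the 3′ UTRs of the members were searched for sites of the family most abundant in mouse ESCs, the ESC-specific cell cycle-regulating (ESCC) microRNAs. These share a seed, bases 2 to 8, shown in capitals (mature sequences from RefSeq, GRCm38.p6).
miR-294-3p: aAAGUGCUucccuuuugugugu
miR-295-3p: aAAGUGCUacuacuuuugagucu
miR-302b-3p: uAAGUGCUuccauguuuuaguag
Sites pairing with the seed or with bases 2 to 7 followed by an A were found in 12 of 77 members tested, or 15.6%, against 18.4% of protein-coding genes tested, and the median 3′ UTR was 327 nt in members and 937 nt in these genes. The 2 members with an 8-base site, and the 2 with a site that were called lower in translation level, are shown with up to 8 bases on each side and the site in capitals.
Mrpl19, chr6:81957921-81957944: aaccaaaaAGCACTTActctcccc
Mrpl48, chr7:100548585-100548608: gtacgttcAGCACTTAggaggtgg
Mrpl9, chr3:94447941-94447963: gcctggccAGCACTTggagctac
Mrpl51, chr6:125195454-125195476: ttaaaaccAGCACTTgggagaca
The first 2 lie on the minus strand and the others on the plus strand of GRCm38.

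Members with such a site did not rise in KO cells as a group. Their median change in translation level was -0.53, against -0.79 for the 65 members without one, and 2 of 12 and 21 of 65 were called lower. Members with and without a site were not matched for CDS length, which ordered this change, and its part in the gap was not tested. In monosomes the medians of KO against WT were -0.25 and -0.36, and in high polysomes -0.76 and -1.08. Mrpl19, with an 8-base and a 7-base site, had 67.6, 47.8 and 53.9 CPM in WT and 32.2, 50.5 and 45.4 CPM in KO monosomes, which overlap (log2 -0.39 ± 0.19, adjusted p = 0.104), and its change in translation level was 0.02 ± 0.24. Mrpl9 went from 97.1, 85.4 and 72.6 CPM in WT to 30.1, 27 and 20.9 CPM in KO high polysomes (log2 -1.73 ± 0.15, adjusted p = 1.72e-12).

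Promoters offered a further feature that the choice by name did not use. RefSeq promoters, from 250 bases before to 50 after the start, were at hand for 69 members. The letters CCGGAAG, the core bound by ETS factors, stood on either strand in 26 of them, or 37.7%, against 20.9% of protein-coding genes tested and 9.93% of all promoters. Part of the NRF1 motif, GCATGCG, was in 8, or 11.6%, against 7.68% and 4.01%. The ETS letters were in 8 of 21 members called lower in translation level and in 17 of 47 others tested. A match is a description of letters and not of binding.

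Mrps11 and Mrpl46, 1 protein of each subunit, lie head to head and are transcribed in opposite directions. The deposited annotation has 29 bases between their starts. The window around both starts is shown to set these 2 members side by side (chr7:78782881-78783180, GRCm38.p6, plus strand, the strand of Mrps11). The 41 bases between the RefSeq starts are in capitals. Common control of the 2 genes was not tested.
Mrps11 and Mrpl46: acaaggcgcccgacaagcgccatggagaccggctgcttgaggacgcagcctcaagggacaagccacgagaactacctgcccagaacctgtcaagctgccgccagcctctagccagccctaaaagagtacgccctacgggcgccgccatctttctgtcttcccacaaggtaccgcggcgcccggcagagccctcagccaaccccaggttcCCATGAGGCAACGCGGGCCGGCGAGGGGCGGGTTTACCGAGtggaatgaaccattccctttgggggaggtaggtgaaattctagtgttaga
Neither motif was found in this window. Monosome levels of Mrps11 were 52.9, 52.3 and 53.9 CPM in WT and 46.1, 50.9 and 52.9 CPM in KO cells, and those of Mrpl46 were 34.8, 25.8 and 33.6 CPM and 28.4, 22.9 and 16.1 CPM. Each overlapped between genotypes. In high polysomes, Mrps11 went from 51.1, 39.3 and 47.1 CPM to 24.5, 22.4 and 16.3 CPM, and Mrpl46 from 64.7, 65.2 and 50.3 CPM to 34.1, 33.9 and 33.3 CPM, without overlap. The change in translation level was -1.08 ± 0.24 for Mrps11 (576 nt CDS, adjusted p = 0.000746) and -0.28 ± 0.28 for Mrpl46 (852 nt CDS, adjusted p = 0.491), and the difference between both genes was not tested.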

How the data were processed

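Polysome fractions of 3 gradients per genotype were sequenced by QuantSeq (3′ end reads). Per the labels and the study's methods, the authors trimmed reads with Cutadapt 1.14, aligned them to mm10 with STAR 2.5.3a, kept uniquely aligned reads and made strand-specific counts with featureCounts 1.5.3 on GENCODE M14. The deposited values are raw counts per gene. Reads that overlap more than 1 gene are then not counted, and PCR copies are counted as reads, so floors cover counting error only. Deposited gene lengths (exonic bases) were not used to scale counts.

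Symbols, CDS and UTR lengths came from GENCODE M21 on the same build. Genes with 3 CPM in at least 3 libraries were tested with limma-voom (limma 3.58.1, edgeR 4.0.16 for TMM, R 4.3.3) with 1 mean for each of 6 groups and no block, as two-sided tests with Benjamini-Hochberg adjustment over all 12851 genes. Calls needed an adjusted p under 0.05 with a log2 change over 1 in either direction. CPM are TMM-scaled, ratios per gradient use a prior count of 2, and fitted values are ± SE. The script was tested on simulated counts. Alternatives were DESeq2 (1.42.0), edgeR quasi-likelihood, limma-trend, other scalings, filters, blocks and left-out gradients. No source states that the gradients came from separate cultures, so p-values measure the spread between gradients, which may be technical.

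Members and lists were chosen with earlier results of these data known. Genes named were, among members with 30 or more reads on average, the 5 highest and lowest by change in translation level and by KO against WT over fractions, the 4 highest and lowest by WT translation level, the 4 most abundant, 7 members and Dgcr8 and Ddx6 in any case, those called where 10 or fewer were, and the 2 largest changes of each other list. Mrpl58, Mrps18a, Mrps18b, Mrps18c, Mrps30, Mrps12 and Mrpl12 are the 7. Mrps36, Mrpl23, Mrps11, Mrpl46, Mrpl19, Mrpl48, Mrpl9, Mrpl51, Mrpl2 as a long message, Mrm3, Tfam, Slirp, Dap3, Ptcd3 and Gadd45gip1 were added after their values were seen. The same numbers mark fractions of 1 gradient, and deviations of its libraries correlated at 0.032 to 0.135 (18 pairs), against -0.14 to 0.076 between gradients (36 pairs).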

Additional observations from a re-analysis of the deposited data

Results flagged for a closer look

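Members whose polysome to monosome ratio differed between genotypes by the interaction test (limma, adjusted p under 0.05, absolute log2 change over 1) deserve a closer look. For the translation level, the lowest log2 changes in KO cells were those of Mrps21 (-1.75), Mrpl36 (-1.69), Mrpl54 (-1.63), Mrpl55 (-1.60), Mrpl14 (-1.55), Mrps6 (-1.50), Mrps12 (-1.35) and Mrpl2 (-1.33). They were followed by Mrps28 (-1.33), Mrpl51 (-1.29), Mrpl34 (-1.28), Mrpl9 (-1.25), Mrps10 (-1.24), Mrpl21 (-1.24), Mrps17 (-1.20) and Mrpl18 (-1.20), and by Mrps14 (-1.17), Mrpl11 (-1.14), Mrpl41 (-1.11), Mrps11 (-1.08), Mrpl27 (-1.07), Mrps18c (-1.07) and Mrpl49 (-1.04). For the low polysome to monosome ratio, the members were Mrpl54 (-1.46), Mrpl57 (-1.33), Mrps21 (-1.31), Mrpl34 (-1.29), Mrpl18 (-1.16), Mrpl14 (-1.13), Mrps12 (-1.06), Mrpl36 (-1.05) and Mrpl33 (-1.03). For the high to low polysome ratio, they were Mrpl40 (-1.14), Mrpl55 (-1.14), Mrpl41 (-1.03), Mrpl21 (-1.02) and Mrpl9 (-1.01). Every one of these values was negative.

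Reads were also present on pseudogenes that the choice of members left out. Mrps36-ps2 reached 19 reads in 1 library, and held 84 reads over the 9 WT and 45 over the 9 KO libraries, more than Mrps36 itself with 47 and 33. Mrpl48-ps reached 13 reads and Mrpl23-ps1 reached 9, beside up to 124 reads of Mrpl48 and 66 of Mrpl23. Near-identical copies can take or lose reads of their parent gene where only unique alignments are kept, so the counts of Mrps36, Mrpl48 and Mrpl23 are uncertain.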

How the results depend on the processing

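Scaling to total counts moved the median of all genes by -0.32 in the change in translation level, -0.07 in the low polysome to monosome and -0.25 in the high to low polysome ratio, 0.05 in monosomes and -0.31 in high polysomes. The member medians became -1.04, -0.44, -0.64, -0.23 and -1.26, and -0.84 for the KO translation level, with 38 members called for the change in translation level, 16 for the high to low polysome ratio and 0 in monosomes. Relative to the shift the members stayed lower. Mrpl12 (-1.12), Mrpl58 (-1.18) and Mrps18a (-1.03) were then called lower in translation level. Values of members near 0 changed sign there: Mrps27 (-0.014) and Mrpl37 (-0.32) in translation level, and Mrpl37 (-0.06) and Mrpl38 (-0.12) in high polysomes. By adjusted p alone, 45, 24 and 28 members were called for the 3 changes in ratio in the order above, 25, 43 and 66 for KO against WT in monosomes, low and high polysomes, and 49 and 59 for the WT and KO translation levels. Removing the trend on coding length moved the median change in translation level to -0.06. The WT translation level had a median of 0.34 with every gene that had a count. In monosomes, 0 members were called with all genes with a count and with only the libraries compared, and 2 with 10 CPM in at least 3 libraries. For the high to low polysome ratio, 3 were called with DESeq2 size factors. Mrpl37, at 0.01 in translation level, was at -0.042 with all genes with a count, -0.021 with the 10 CPM filter, -0.0057 with edgeR, -0.0021 with the replicate block and -0.05 with only the libraries compared, where Mrps15 was at 0.0028 in high polysomes; the causes were not tested.

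Leaving out 1 gradient gave 18 to 25 members called for the change in translation level, and 3 to 10 for the high to low polysome ratio: 3 without WT gradient 1 or KO gradient 3, 8 without KO gradient 1, 9 without WT gradient 3 and 10 without KO gradient 2. In monosomes it gave 0 (without WT gradient 1) to 3 (without KO gradient 2). Medians ran from 0.19 to 0.35 for the WT and -0.59 to -0.46 for the KO translation level, and from -0.50 to -0.36 in low polysomes. Mrpl37 ran from -0.11 to 0.09 in translation level, Mrpl38 from -0.18 to 0.022 in monosomes and Mrps15 from -0.06 to 0.0043 in high polysomes. The replicate block, the gradient for ratios and the number for KO against WT, gave 24 members called for the change in translation level, 40 in high polysomes and 1 in monosomes, and changed no other call of a named member besides that of Mtrf1, which passed with it at -1.62 (adjusted p = 0.0479). The other 214 values of counts and medians stayed within 1.5 times or within the spread between libraries. Depth limits Mrps36, Mrps18b, Mrpl23 and Mrps33, at 4.44 to 29.4 reads per library, and Mrpl53 was not measured.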
